A study of Homo sapiens with 6 samples.

Results

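HNF4A, HNF4G, FOXA1, FOXA2, FOXA3, ONECUT2, CEBPA and GATA6 are transcription factors of liver and foregut endoderm. They were chosen by symbol as known activators of liver-type secreted genes, and all 8 were found among the 28317 genes of the deposited table. All 8 passed the filter on low counts, which left 15757 genes. RNA was sequenced from A549, an established lung adenocarcinoma cell line, in 6 libraries. Every culture received lentiviral lentiCRISPR v2. In 3 of them (UXS1 KO) it carried a single guide against UXS1, the enzyme that makes UDP-xylose, and in 3 (control) a non-targeting guide. Puromycin selection lasted 5 days, and collection was on day 7 after infection. The labels name no clone and do not say whether replicates were separate infections, and the spread behind each p-value is that between these cultures, which may be technical.

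HNF4A and HNF4G are nuclear receptors that bind DNA as dimers at promoters of apolipoprotein, clotting factor and other liver genes. The FOXA proteins are forkhead pioneer factors, which can bind sites in closed chromatin and are needed to set up the liver, lung and other foregut organs. CEBPA is a leucine zipper factor of hepatocytes, fat and myeloid cells, GATA6 a zinc finger factor of early endoderm and lung epithelium, and ONECUT2 a cut-homeodomain factor related to ONECUT1, also called HNF6. These factors bind each other's regulatory regions in liver cells.

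Start-site sequences are shown for HNF4A, which has a pair of promoters, and for FOXA3 and CEBPA, the members with the largest and one of the smallest changes. They are RefSeq sequences on GRCh38.p14, from 250 bases before to 50 after the annotated start, written 5′ to 3′ on the strand of the gene. Capitals mark the letters found by a search of both strands described after them.
HNF4A upstream start, chr20:44355449-44355748, plus strand: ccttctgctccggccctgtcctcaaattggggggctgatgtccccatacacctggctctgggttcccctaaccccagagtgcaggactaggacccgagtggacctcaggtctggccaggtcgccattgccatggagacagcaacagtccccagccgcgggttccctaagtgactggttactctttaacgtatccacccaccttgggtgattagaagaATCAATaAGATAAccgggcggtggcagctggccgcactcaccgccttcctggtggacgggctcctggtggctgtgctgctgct
HNF4A downstream start, chr20:44400989-44401288, plus strand: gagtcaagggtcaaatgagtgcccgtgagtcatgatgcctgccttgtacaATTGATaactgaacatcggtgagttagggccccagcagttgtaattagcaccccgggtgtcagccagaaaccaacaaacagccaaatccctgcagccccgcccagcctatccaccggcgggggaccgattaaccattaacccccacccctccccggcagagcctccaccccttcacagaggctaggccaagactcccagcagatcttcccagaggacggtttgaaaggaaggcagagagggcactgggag
FOXA3, chr19:45864076-45864375, plus strand: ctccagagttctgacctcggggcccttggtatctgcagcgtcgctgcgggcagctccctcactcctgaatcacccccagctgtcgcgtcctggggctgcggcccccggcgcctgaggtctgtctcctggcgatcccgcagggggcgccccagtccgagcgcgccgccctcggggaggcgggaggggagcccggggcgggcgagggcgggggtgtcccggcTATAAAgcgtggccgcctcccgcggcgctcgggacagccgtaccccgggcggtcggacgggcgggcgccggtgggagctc
CEBPA, chr19:33302485-33302784, minus strand: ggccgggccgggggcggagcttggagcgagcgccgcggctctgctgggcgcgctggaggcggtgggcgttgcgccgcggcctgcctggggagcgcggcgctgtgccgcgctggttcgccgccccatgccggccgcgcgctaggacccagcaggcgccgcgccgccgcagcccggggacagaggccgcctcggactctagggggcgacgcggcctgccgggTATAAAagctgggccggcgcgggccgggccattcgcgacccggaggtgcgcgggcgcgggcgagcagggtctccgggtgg

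The search used short forms of the sites of these and related factors: TGTTTAC for FOXA, CAAAGTCC for HNF4, ATCAAT for ONECUT, AGATAA for GATA, TTGCNNAA for C/EBP and TATAAA for the TATA box. Of the 8 members 6 had an entry in the RefSeq promoter table, with 7 windows in all. The upstream HNF4A start held ATCAAT at position -33 and AGATAA at position -26, counted back from the start. ATCAAT was found in 6.26% and AGATAA in 10.3% of 35116 promoter windows of the same length. The downstream HNF4A start, 45.5 kb away, held ATTGAT, the reverse complement of ATCAAT, at -200. FOXA3 and CEBPA each held TATAAA at position -30, which 11.5% of all windows held, and no other letters of the search. None of the 6 motifs was found in the windows of FOXA1, ONECUT2 and GATA6. The share of G and C was 76.3% for FOXA3 and 80.7% for CEBPA, against 60.0% and 57.7% for the HNF4A windows and a median of 58.7% over all windows. Gene-level counts cannot tell the HNF4A starts apart, and a match of letters is a description, not a site. The motifs were chosen with the sequences known.

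Libraries held 21121489 to 22160405 counts. UXS1 had 735 to 764 counts in UXS1 KO and 1346 to 1416 in control libraries, and it fell by 0.89 on the log2 scale (SE 0.048, adjusted p = 2.2e-14 in edgeR). The guide target was lower in every UXS1 KO library than in any control. The epithelial keratins KRT8 and KRT18 stood at 3771 ± 179 and 4488 ± 145 TPM in control cells (mean ± SD, n = 3), while NKX2-1, a defining factor of the alveolar lineage, had 0 to 5 counts per library. The 8 alveolar markers measured summed to 5.17 to 6.49 TPM in control and 4.91 to 7.77 TPM in UXS1 KO libraries. AGER made up most of the control sum, at 3.45 ± 0.456 TPM (n = 3). Of these markers 2 were tested, beside 24.5% called higher among all genes. NAPSA was higher by 0.56 (adjusted p = 0.046 in edgeR) and AGER was not called (adjusted p = 0.92 in edgeR).

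Of these factors 6 were higher in UXS1 KO cells and none was lower, with FOXA3 changing most and CEBPA and ONECUT2 not passing the test. The threshold was 0.05 on the p of edgeR's quasi-likelihood test, adjusted over all genes tested. By the same rule 24.5% of all genes tested were higher, 23.7% lower and 48.2% either, so a called rise was common in this comparison. The members' median log2 fold change was 0.39, against -0.0030 for all genes tested. The members were chosen with earlier results of these data known, so their counts and median are a description. The same 6 factors had CPM ranges that did not overlap between groups, all higher in UXS1 KO, which held for 27.5% of genes tested, with 26.9% lower and 54.5% in either direction. In bulk RNA, more transcript per cell and more cells that carry the transcript cannot be told apart.

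**Figure D1:**
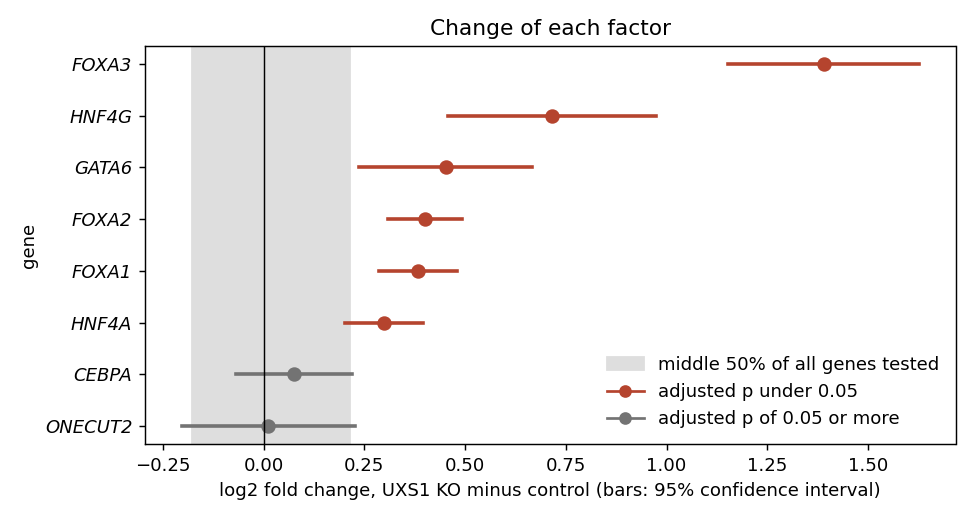
Log2 fold change of each factor, UXS1 KO minus control (x axis; points, with 95% confidence intervals as bars), by gene (y axis); the grey band spans the middle 50% of all genes tested. FOXA3 lies at 1.39, HNF4A, FOXA1, FOXA2, GATA6 and HNF4G between 0.30 and 0.72, and the intervals of CEBPA and ONECUT2 include 0.

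FOXA3, the FOXA member best known from adult liver, stood at 10.2, 10.7 and 10.5 CPM (counts scaled to library size, with TMM factors) in UXS1 KO replicates 1 to 3. In control replicates 1 to 3 it stood at 3.32, 4.74 and 3.95 CPM. The lowest UXS1 KO library was thus above the highest control library. FOXA3 rose by 1.39 on the log2 scale (SE 0.12, adjusted p = 1.2e-10 in edgeR), which is 2.62-fold with a 95% confidence interval from 2.22 to 3.09. This change ranked 309 from the top among the 15757 genes tested, higher than 98.0% of them. The control libraries of FOXA3 spread more than those of FOXA1 or FOXA2, with a coefficient of variation of 17.7% against 4.26% and 4.22%. FOXA3 (ENSG00000170608.3) lies on chromosome 19 at 45863989 to 45873797, plus strand, in GENCODE 29 on GRCh38.

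FOXA2, required for endoderm and its foregut derivatives, was the most abundant of the 8 per length. It stood at 85.8, 80.6 and 80.1 CPM in UXS1 KO and at 59.9, 61.7 and 65.1 CPM in control replicates 1 to 3. FOXA1, its close relative in lung, liver and hormone-responsive epithelium, stood at 62.1, 60.8 and 65.2 CPM in UXS1 KO and at 45.8, 49.1 and 49.5 CPM in control. For both genes every UXS1 KO library lay above every control library. FOXA2 rose by 0.40 (SE 0.044, edgeR adjusted p = 2.8e-08) and FOXA1 by 0.38 (SE 0.047, edgeR adjusted p = 1.6e-07). FOXA2 (ENSG00000125798.14) lies on chromosome 20 at 22581005 to 22585455 and FOXA1 (ENSG00000129514.8) on chromosome 14 at 37589984 to 37596059, both on the minus strand.

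FOXA3 made up a larger share of the FOXA family in UXS1 KO cells. On the TPM scale, which is per length, FOXA3 made up 9.29%, 10.1% and 9.79% of the summed FOXA level in UXS1 KO replicates 1 to 3 and 4.47%, 6.01% and 4.88% in control replicates 1 to 3. The shares did not overlap. FOXA2 remained the main member, with 62.2% ± 1.32 in UXS1 KO and 65.2% ± 1.04 in control cells (n = 3 each). The summed FOXA level was 177 ± 5.00 TPM against 128 ± 4.44 TPM, 1.38 times as high in UXS1 KO. Per library, FOXA3 minus FOXA2 on the log2 TPM scale was -2.68 ± 0.0863 in UXS1 KO and -3.68 ± 0.243 in control, so the ratio of FOXA3 to FOXA2 was 2.01 times as high in UXS1 KO cells. An exact two-sided permutation test over the 6 libraries gave p = 0.1, the smallest that 3 against 3 allow, and 0.15 after adjustment over the 3 paralog pairs compared. FOXA1 minus FOXA2 stood at -1.15 ± 0.0864 in UXS1 KO and at -1.13 ± 0.0359 in control (exact permutation p = 0.8, adjusted 0.8), with overlapping libraries.

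**Figure D2:**
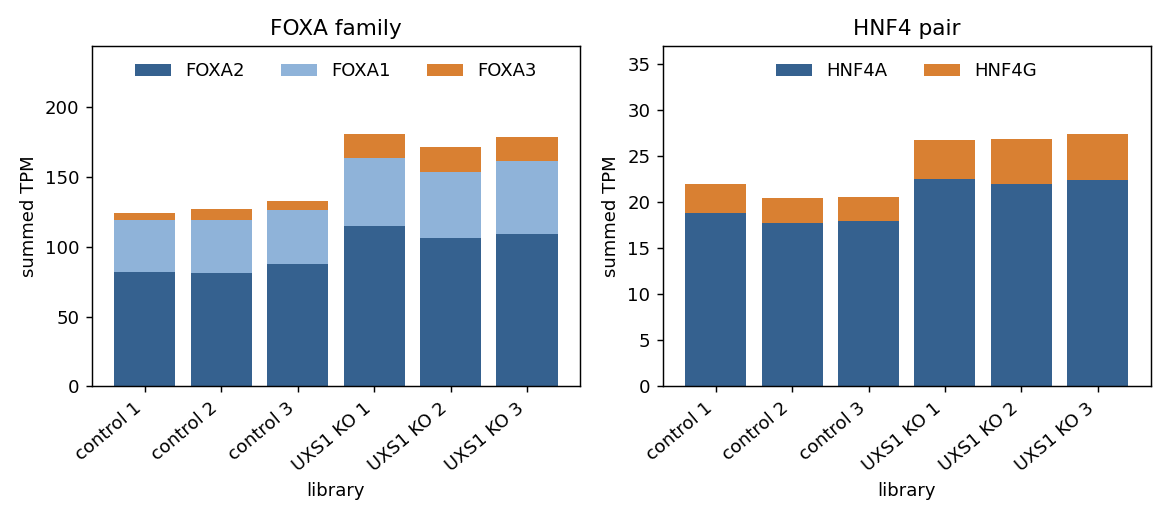
Summed TPM per library (y axis, bars stacked by gene) of the FOXA family and of the HNF4 pair in the 3 control and 3 UXS1 KO libraries (x axis). The summed FOXA level is 124 to 133 TPM in control and 171 to 181 TPM in UXS1 KO libraries, and the FOXA3 part is larger in each UXS1 KO library.

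HNF4A, the nuclear receptor at the centre of the hepatocyte program, stood at 47.3, 46.9 and 46.4 CPM in UXS1 KO and at 38.7, 37.9 and 37.7 CPM in control replicates 1 to 3. The libraries of each group lay close together and the groups did not overlap. HNF4A rose by 0.30 (SE 0.048, edgeR adjusted p = 8.9e-06), or 1.23-fold with a 95% interval from 1.15 to 1.32. It had the smallest change of the 6 factors called, and its coefficient of variation was the lowest of the 8 in both groups. HNF4A (ENSG00000101076.16) lies on chromosome 20 at 44355700 to 44434596, plus strand, and has 6 distinct transcript starts in GENCODE 29.

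HNF4G, its paralog, expressed mainly in intestine, stood at 5.75, 6.83 and 6.75 CPM in UXS1 KO and at 4.32, 3.86 and 3.57 CPM in control replicates 1 to 3. All UXS1 KO libraries lay above the control libraries. HNF4G rose by 0.72 (SE 0.13, edgeR adjusted p = 3.2e-05), or 1.64-fold with a 95% interval from 1.37 to 1.96. Its share of the summed HNF4 level in TPM was 17.3% ± 1.46 in UXS1 KO and 13.5% ± 0.968 in control. The summed HNF4 level was 27.0 ± 0.347 against 21.0 ± 0.856 TPM. HNF4A remained 4.78 times as abundant as HNF4G in UXS1 KO and 6.39 times in control, a log2 change of the ratio of 0.42 (exact permutation p = 0.1, adjusted 0.15). HNF4G (ENSG00000164749.13) lies on chromosome 8 at 75407914 to 75566843, plus strand.

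GATA6 stood at 9.62, 9.99 and 8.59 CPM in UXS1 KO and at 7.14, 5.98 and 7.48 CPM in control replicates 1 to 3. The groups did not overlap, with 8.59 CPM as the lowest UXS1 KO and 7.48 CPM as the highest control library. GATA6 rose by 0.45 (SE 0.10, edgeR adjusted p = 7.8e-04), or 1.37-fold with a 95% interval from 1.18 to 1.59. GATA6 (ENSG00000141448.10) lies on chromosome 18 at 22169443 to 22202528, plus strand, and 8.14% and 6.08% of its exonic length overlaps antisense genes. Whether counting used strand is not given in the labels, so reads of a gene and its antisense partner cannot be told apart. GATA6-AS1, the partner with the smaller overlap, had 2 to 10 counts per library.

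CEBPA stood at 17.2, 18.9 and 19.8 CPM in UXS1 KO and at 17.3, 17.7 and 18.2 CPM in control replicates 1 to 3. The groups overlapped, with UXS1 KO replicate 1 below all controls. CEBPA differed by 0.08 on the log2 scale (SE 0.070, adjusted p = 0.39 in edgeR), and the 95% interval ran from 0.954-fold to 1.17-fold. CEBPA (ENSG00000245848.3) lies on chromosome 19 at 33299934 to 33302564, minus strand, in 1 exon, of which 25.0% and 18.3% overlap antisense genes. ONECUT2 stood at 10.3, 10.7 and 11.4 CPM in UXS1 KO and at 13.01, 9.75 and 9.29 CPM in control. Control replicate 1 was the highest of the 6 libraries, and the other controls were below all UXS1 KO libraries. ONECUT2 differed by 0.01 (SE 0.10, adjusted p = 0.94 in edgeR), with a 95% interval from 0.869-fold to 1.17-fold. The sign turned when UXS1 KO replicate 3, control replicate 2 or control replicate 3 was left out (-0.03, -0.05 and -0.08, edgeR adjusted p = 0.86, 0.74 and 0.58). ONECUT2 (ENSG00000119547.6) lies on chromosome 18 at 57435685 to 57491297, plus strand.

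The order of levels per length was the same in both groups: FOXA2, FOXA1, CEBPA, HNF4A, FOXA3, GATA6, HNF4G and ONECUT2. In control cells it ran from 83.5 ± 3.38 TPM for FOXA2 to 2.26 ± 0.468 TPM for ONECUT2 (n = 3). FOXA3 (6.56 ± 1.03 TPM) and GATA6 (6.00 ± 0.772 TPM) did not differ beyond their spread in control, nor did HNF4G (2.85 ± 0.314 TPM) and ONECUT2. In UXS1 KO every neighbour in the order was separated without overlap, with FOXA3 at 17.2 ± 0.376, GATA6 at 8.19 ± 0.525 and HNF4G at 4.68 ± 0.438 TPM. CEBPA and HNF4A were next to each other at 25.0 ± 1.96 and 22.3 ± 0.270 TPM. The 8 factors together summed to 239 ± 4.77 TPM in UXS1 KO and 181 ± 4.70 TPM in control.

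**Figure D3:**
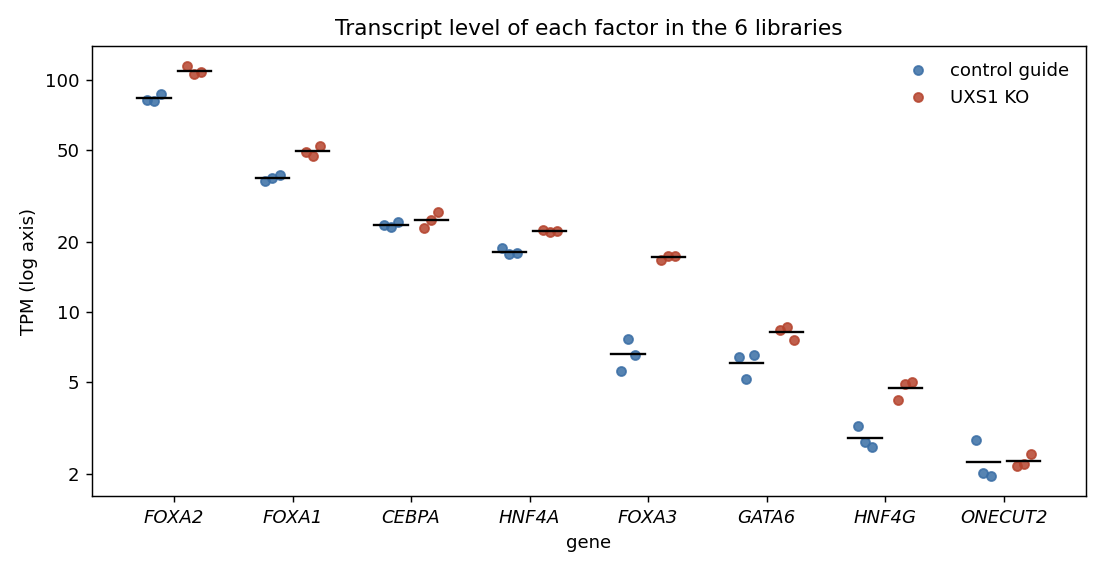
TPM of each factor (y axis, log scale) in each library; points are single libraries of the control guide or UXS1 KO, and lines are group means of 3. FOXA3 lies among the points of GATA6 in control and above all of them in UXS1 KO, while the points of CEBPA and ONECUT2 overlap between groups.

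Most other tested factors of the liver network rose. Like the members, this list and those below were chosen with earlier results of these data known, so their counts are a description. Of 25 listed, 19 were tested, 14 were higher and 2 lower, with a median log2 fold change of 0.32, beside 24.5% higher and -0.0030 for all genes. NR1H4, the bile acid receptor FXR, rose from 2.37 ± 0.599 to 7.54 ± 0.931 CPM with 3 libraries each (difference 1.66 on the log2 scale, SE 0.15, adjusted p = 8.7e-10 in edgeR). NR1H3, the oxysterol receptor LXR alpha, rose by 0.91, the acute-phase regulator CEBPD by 0.54 and NR2F2, a nuclear receptor that can bind HNF4 sites, by 0.44. The 2 lower genes were CEBPG at -0.14 and RXRA at -0.10, the latter picked after its value was seen. Leaving out control replicate 1 left 0 lower genes on this list, and leaving out control replicate 2, UXS1 KO replicate 2 or UXS1 KO replicate 3 left 1. ONECUT1 had 14 to 23 counts per library and was not called.

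Of 26 listed factors of other foregut and lung lineages, 18 were tested, 10 were higher and 3 lower, with a median of 0.16, beside 24.5% higher and 23.7% lower for all genes. Of the 18, 1 averaged under 1 CPM in control and passed the filter only through UXS1 KO. With a mean of at least 1 CPM as the filter, 10 of 17 were higher and 3 lower, with a median of 0.14. SPDEF, a factor of mucus-secreting cells, rose from 26.2 ± 0.592 to 48.9 ± 0.312 CPM with 3 libraries each (difference 0.90 on the log2 scale, SE 0.051, adjusted p = 5.8e-14 in edgeR). SOX2, of the foregut and airway, rose by 0.97, and SOX9, of distal lung progenitors, by 0.69. ID2, an inhibitor of helix-loop-helix factors, went from 65.5 ± 5.15 to 35.2 ± 1.36 CPM (n = 3 each) and fell by 0.90. GATA4 and GATA5, the relatives of GATA6, were not called, at 0.09 and -0.13; both were picked after their values were seen.

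Lists of genes that these factors are known to activate were described in the same way. The target lists share members, such as TTR and SERPINA1, and liver targets were already known to rise in these data, so the counts are a description. Of 33 listed HNF4 targets 14 were tested, and 9 of them were higher and none lower, beside 24.5% and 23.7% of all genes. The median was 1.65, which was 0.19 on log2(TPM + 1) values with no filter. With a mean of at least 1 CPM as the filter, 9 of 12 were higher with a median of 1.75, beside 26.5% of all genes. Of the 14, 6 averaged under 1 CPM in control and 3 passed the filter only through the UXS1 KO libraries, which favours a rise. High UXS1 KO values alone can also carry a gene past the 1 CPM filter, so these counts and medians are not read against other genes. CDH17, the liver-intestine cadherin, went from 40.3 ± 3.75 to 137 ± 2.50 CPM (n = 3 each) and rose by 1.77 (SE 0.050, edgeR adjusted p = 3.6e-20). The plasma protein APOH rose by 1.57. The thyroxine carrier TTR rose by 3.94, from 5 to 6 counts per control library to 72 to 94 per UXS1 KO library. The iron carrier TF rose by 3.16, from 10 to 25 counts per control library to 134 to 162 per UXS1 KO library. TTR and TF are among the 3 that passed the filter only through UXS1 KO. On log2(TPM + 1) values with no filter they rose by 2.30 and 0.80. APOB and APOA2 had 0 counts in each library, which allows up to 0.134 to 0.143 CPM per library at 3 counts, a limit that covers counting error only. MTTP, the lipid loader of apolipoprotein B, had 0 to 3 counts per library.

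Of 18 listed FOXA targets 9 were tested, with 8 higher and none lower, beside 24.5% and 23.7% of all genes. The median was 1.26, which was 0.43 on log2(TPM + 1) values with no filter. With a mean of at least 1 CPM as the filter, 7 of 7 were higher with a median of 1.27, beside 26.5% of all genes. Of the 9, 4 averaged under 1 CPM in control and 2 passed the filter only through UXS1 KO. As for the HNF4 list, these counts and medians are not read against other genes. AGR2, a disulfide isomerase of mucus-secreting cells, rose from 200 ± 12.3 to 486 ± 17.8 CPM with 3 libraries each (difference 1.28 on the log2 scale, SE 0.042, adjusted p = 7.8e-19 in edgeR). SERPINA1 rose by 2.92, from 11 to 18 counts per control library to 90 to 121, and IGFBP1 by 0.67. The surfactant genes SFTPB and SFTPC, targets of FOXA factors in alveolar cells, had 0 to 4 counts per library and were not tested.

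Of 25 listed C/EBP targets 8 were tested, with 6 higher and none lower, beside 24.5% and 23.7% of all genes. The median was 1.42, which was 0.29 on log2(TPM + 1) values with no filter. With a mean of at least 1 CPM as the filter, 4 of 5 were higher with a median of 1.77, beside 26.5% of all genes. Of the 8, 5 averaged under 1 CPM in control and 2 passed the filter only through UXS1 KO. Here too the counts and medians are not read against other genes. CEBPA itself was not called. Of its listed relatives, CEBPD rose by 0.54 and CEBPB by 0.28, while CEBPG fell by 0.14. CEBPB was picked after its value was seen. Complement C3 rose from 70.2 ± 2.69 to 238 ± 4.27 CPM with 3 libraries each (difference 1.76 on the log2 scale, SE 0.040, adjusted p = 6.1e-22 in edgeR), LBP by 3.62 and the urea cycle enzyme CPS1 by 0.37. Of 16 listed GATA6 targets 10 were tested, with 4 higher, 3 lower and a median of 0.08, beside 24.5% higher and 23.7% lower for all genes. Without UXS1 KO replicate 2 the number higher was 2. The ligand WNT7B went from 364 ± 13.2 to 196 ± 3.75 CPM (n = 3 each) and fell by 0.89 (SE 0.037, edgeR adjusted p = 1.2e-16), and the basement membrane collagens COL4A1 and COL4A2 fell by 0.37 and 0.26. VIL1, the villin of intestinal microvilli, also on the HNF4 list, rose by 2.12.

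**Figure D4:**
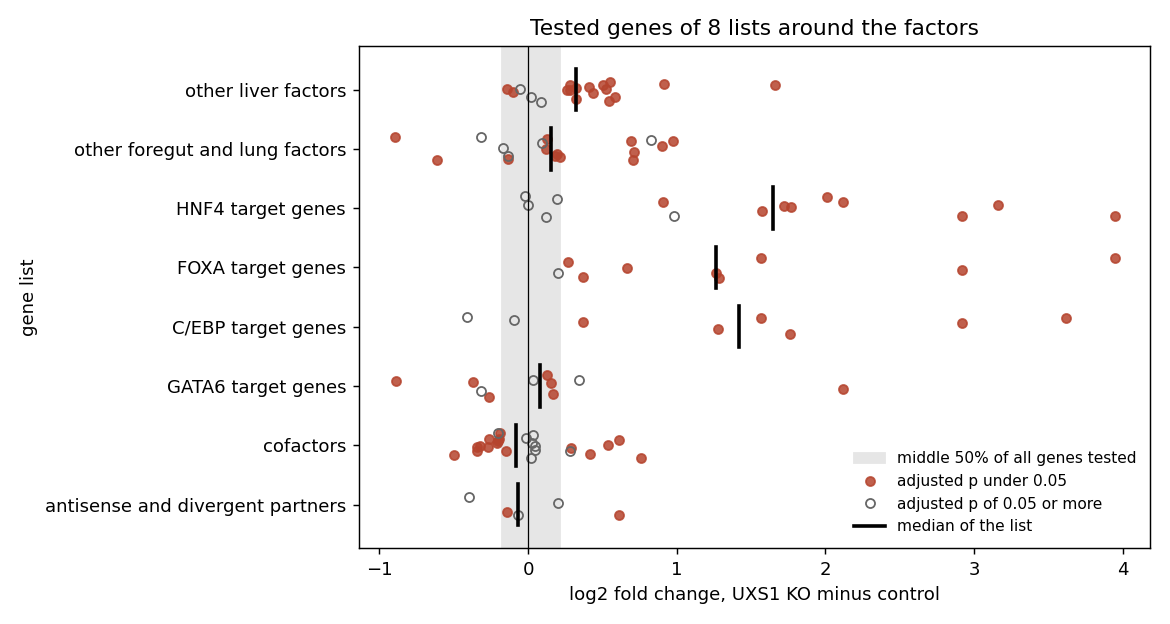
Log2 fold change, UXS1 KO minus control (x axis), of each tested gene on 8 lists (y axis); filled points passed the test, open points did not, black lines are list medians and the grey band spans the middle 50% of all genes tested. The HNF4, FOXA and C/EBP target lists have medians of 1.65, 1.26 and 1.42. Of their tested genes 3, 2 and 2 passed the filter only through UXS1 KO, so these medians are not read against the others. The other lists have medians between -0.08 and 0.32.

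The 7 hepatocyte markers measured summed to 7.01 to 8.20 TPM in UXS1 KO and 0.809 to 1.18 TPM in control libraries. TTR, which is also on the HNF4 and FOXA target lists, made up most of the sum in UXS1 KO, at 5.75 ± 0.714 TPM against 0.366 ± 0.0307 TPM in control (n = 3 each). TTR and ASGR1 were the markers tested and both were higher, but TTR passed the filter only through UXS1 KO. ASGR1 was also low in control, at 0.203 ± 0.0711 TPM against 0.861 ± 0.114 TPM in UXS1 KO (n = 3 each). The same limit may hold for ASGR1, so both calls are a description. APOA1 stood at 0.0754 ± 0.0654 TPM in UXS1 KO and 0.268 ± 0.182 TPM in control (n = 3 each) and was not tested. Albumin (ALB), the defining hepatocyte product, had 4, 11 and 9 counts in UXS1 KO and 1, 0 and 0 in control replicates 1 to 3, too few to be tested. Of the other cell types, fibroblast markers summed to 6.11 to 7.17 TPM in UXS1 KO and 5.65 to 6.18 in control, leukocyte markers to 1.41 to 2.16 and 0.0965 to 0.337, and endothelial markers to 0.701 to 0.831 and 0.518 to 0.927. Tested among these were 1 leukocyte, 2 fibroblast and 1 endothelial marker. LYZ and COL3A1 were the tested genes that were higher, beside 24.5% of all genes, and COL1A2 and CD3E were at 0 in all libraries. Both higher genes were low in control, LYZ at 0.186 ± 0.0886 and COL3A1 at 0.386 ± 0.168 TPM. In UXS1 KO they stood at 1.62 ± 0.356 and 0.790 ± 0.163 TPM (n = 3 each). The filter limit may hold for LYZ and COL3A1 too, so their calls are a description. Of 5 epithelial markers 3 were higher (EPCAM, KRT19 and CDH1) and none lower, beside 24.5% higher and 23.7% lower for all genes. The 5 summed to 8573 to 8821 TPM in UXS1 KO and 8167 to 8805 TPM in control. KRT8 and KRT18 made up most of these sums and were not called (adjusted p = 0.45 and 0.99 in edgeR). The part of such cells in the results was not tested.

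All 24 listed cofactors of the 8 factors were tested, with 5 higher, 11 lower and a median of -0.08, beside 24.5% higher and 23.7% lower for all genes. NCOA3, a coactivator of nuclear receptors, went from 185 ± 9.44 to 146 ± 2.02 CPM (n = 3 each) and fell by 0.34 (SE 0.039, edgeR adjusted p = 6.0e-08). The arginine methyltransferase PRMT1 fell by 0.32 and the corepressor NCOR1 by 0.26, while TLE3, a corepressor that binds FOXA proteins, rose by 0.42. PPARGC1A, which coactivates HNF4A on liver genes and was picked after its value was seen, rose by 0.61, from 2.25 ± 0.265 to 3.46 ± 0.269 CPM (n = 3 each).

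Of 7 listed antisense, divergent and neighbouring transcripts of the members, 5 were tested, with 1 higher and 1 lower, near the 24.5% and 23.7% of all genes. The number lower was 0 without control replicate 1, and 2 without control replicate 2, UXS1 KO replicate 1 or UXS1 KO replicate 2. LINC00261, a long non-coding RNA gene beside FOXA2, stood at 5.47, 4.29 and 3.93 CPM in UXS1 KO and 2.46, 3.59 and 2.91 CPM in control replicates 1 to 3, and rose by 0.61 (SE 0.16, adjusted p = 0.0025 in edgeR). CEBPA-DT, the divergent transcript of CEBPA, stood at 2.75 ± 0.675 against 3.60 ± 0.211 CPM (n = 3 each; difference -0.40, adjusted p = 0.054 in edgeR). MIPOL1, next to FOXA1, stood at 0.20 and was not called.

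By the correlation of log2 CPM over the 6 libraries, the genes most like FOXA3 among 11018 with a mean of at least 5 CPM were TRAPPC6A and CYBA, each with r = 0.999. Those most like HNF4A were PDLIM5 and SLC46A3 (r = 0.999 each), like FOXA1 MLYCD (1.00) and ECH1 (0.999), and like FOXA2 TSPYL2 (1.00) and UBXN6 (0.998). For HNF4G they were CPPED1 (0.995) and GHITM (0.994), and for GATA6 GGACT (0.995) and PIGK (0.994). Among the genes compared, 6.14% of genes for GATA6 to 18% for HNF4A had r above 0.9. These values are a description over libraries that share 1 difference between groups.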

How the data were processed

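Expression was measured in 6 A549 libraries, grouped by sample titles. Per the submitters' processing notes, STAR, featureCounts, DESeq2 and hg38 were used; their versions, the annotation and the strand setting are not stated. The deposited count table holds whole-number counts per gene, without normalization. The authors also deposited TPM, which sums to 1000000 per library.

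Genes were filtered with filterByExpr (minimum count 10), scaled by TMM and tested with edgeR 4.0.16 (R 4.3.3), quasi-likelihood, two-sided, group as the only term, Benjamini-Hochberg over 15757 genes. Differences are coded as UXS1 KO minus control, on the log2 scale, with the SE taken from the F statistic. Members and lists were chosen with earlier results of these data known. Named list genes are up to 4 per list with the smallest adjusted p. Others are said to be picked later, or are given by their counts and also lie outside this rule. Of 174 list entries 152 matched by symbol. Positions are from GENCODE 29, matched by gene ID without its version, and may differ from the annotation used for counting. For FOXA1 the length relative to HNF4A was 0.545 in GENCODE 29 and 0.604 from counts per TPM. On simulated data over 15379 genes edgeR made 192 calls, of which 9 were false. It found 72% of genes changed 1.25-fold, 94% at 1.5-fold and 100% at 2-fold. Only 200 genes were changed there, drawn above a minimum count. Every simulated gene had the common dispersion (coefficient of variation 3.32%). These figures thus do not cover genes with low counts or a wider spread. Chi-square over degrees of freedom was 1.60 to 3.39 between replicates, above the 1 of sampling noise, and all were kept as separate. Other settings tried were DESeq2 1.42.0, RLE scaling, library size only, 2 other filters, the replicate block, TPM with limma 3.58.1 and each library left out.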

Additional observations from a re-analysis of the deposited data

How the results depend on the processing

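The 6 factors called higher kept their direction and stayed past the threshold under all 15 alternatives; CEBPA and ONECUT2 passed under none, and no factor was called lower. The highest adjusted p of the 6 was 0.0389, for GATA6. Leaving out 1 library turned the sign of ONECUT2 (-0.0791 to 0.179, the lowest without control replicate 3) and of the FOXA1 minus FOXA2 change (-0.0645 to 0.0207; 0.0028 without control replicate 2). The FOXA3 minus FOXA2 change ran from 0.90 to 1.14 and the HNF4G minus HNF4A change from 0.36 to 0.51 without 1 library, and the latter was 0.28 with log2(TPM + 1). Over all genes, where 3863 were higher and 3727 lower, 3415 to 3654 were higher and 3209 to 3515 lower without 1 library, 2937 and 2862 with DESeq2, 4064 and 3452 with library size only and 2855 and 2661 with log2(TPM + 1) and no filter. Correlations of same-numbered deviations were 0.010, 0.106 and 0.143. Those of different-numbered libraries were not compared, so whether the replicate numbers pair the libraries cannot be told. With the replicate block 6 factors were higher, and lower genes among the partner transcripts were 2. That number was also 2 with no filter, 0 with TPM and 0 to 2 without 1 library, while its higher genes were 0 with log2(TPM + 1) and no filter. Lower genes among the other liver factors were 1 with DESeq2, library size only or a mean of at least 1 CPM, 0 with TPM and 0 to 2 without 1 library. Higher GATA6 targets were 2 with DESeq2 and 2 to 4 without 1 library. Higher cofactors were 3 with TPM, and C/EBP targets had 1 lower gene with log2(TPM + 1) and no filter. The HNF4 target median fell to 0.19 and the C/EBP one to 0.29 with log2(TPM + 1) and no filter, a setting that changes the scale and the genes included together. The cause of these shifts was not tested. Near 4 CPM, as for HNF4G and FOXA3 in control, 73 to 103 counts per library limit the precision.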

Other observations

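Of the 16 nearest protein-coding genes on either side of the members in GENCODE 29, 9 were tested. Of these 1 was higher, 3 were lower and 5 were not called, with a median log2 fold change of 0.0049; over all genes tested 24.5% were higher, 23.7% lower and 48.2% either, so the share called was near that of all genes. SYMPK, a scaffold of the messenger RNA 3′ end machinery, lies 0.7 kb from FOXA3 and stood at 198 against 191 CPM, a difference of 0.05 on the log2 scale (SE 0.036, adjusted p = 0.24 in edgeR). IRF2BP1, 9.8 kb beyond FOXA3 on the other side, rose by 0.12, against 1.39 for FOXA3 itself. TTPAL, 41.3 kb from HNF4A, stood at 0.0049 and was not called. ZFHX4, 1114 kb from HNF4G, fell by 0.32, MIB1, 298.5 kb from GATA6, by 0.18, and CEBPG, 70.8 kb from CEBPA, by 0.14.

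Several factors that accompany these members in liver or pancreas were close to the limit of detection. NR0B2, a repressor that partners nuclear receptors, had 9, 13 and 5 counts in UXS1 KO and 0, 0 and 1 in control replicates 1 to 3 and was not tested. PROX1 had 2 to 11 counts and PDX1 0 to 3 counts per library. NR0B2, PROX1 and PDX1 lie outside the rule for named list genes.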
